A study of Mus musculus with 14 samples.

Results

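Solute carriers are membrane proteins that move small molecules across the plasma membrane and the membranes of organelles. The genes described here are the 153 rows, of 9474 genes in the deposited tables, whose symbol starts with Slc and a digit. Of 158 such rows, 5 were left out by name: Slc2a1, Slc7a1, Slc7a2, Slc7a11 and Slc40a1. All 9474 genes stand in both tables, and the 153 members were compared between IL4 and control macrophages of C57BL/6J mice in 2 settings. In culture, purified bone marrow monocytes were grown for 7 days with the macrophage growth factor CSF1 and 20 ng/mL of mouse IL4 (4 libraries), against CSF1 alone (4 libraries). CSF1 is stated as 25 ng/mL in the protocol for cell growth but as 20 ng/mL in the series' design. In marrow, mice received acute myeloid leukemia (AML) cells, either with an IL4 cDNA (3 libraries) or with an empty vector (3 libraries), and F4/80-positive marrow cells were sorted 12 days later, so all marrow libraries come from mice with AML cells. The promoter that drives the cDNA is not given in the sources used here. The marrow design therefore exposes macrophages to IL4 made by leukemia cells, while the culture design adds the protein to the medium.

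Solute carriers are grouped into families by sequence, and members of a family often share a kind of substrate. Some exchange a molecule against another, some couple uptake to sodium or protons, and some, such as the light chains of the Slc7 family, need a partner protein to reach the cell surface. In macrophages they are known for supplying amino acids and sugars, for exporting lactate, for moving iron, zinc and manganese to and from phagosomes, and for setting the pH of endosomes and lysosomes. IL4 acts through its receptor and the transcription factor STAT6, and drives macrophages towards a type 2 state.

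Levels are given as reads per 1000000 (RPM), the whole reads recovered from the deposited log2 values over all reads of the library's table. The deposited values carry a constant per gene that does not follow gene length, so levels are compared between libraries and never between genes. Changes are log2 differences of the deposited values, IL4 minus control, with the standard error (SE) of limma. An adjusted p is limma's two-sided p with Benjamini-Hochberg adjustment over all 9474 genes, and a gene passed, rose or fell where it was under 0.05. There were 4 libraries a group in culture and 3 a group in marrow throughout. Whether the libraries of a group come from separate cultures or mice is not in the labels, and the p-values reflect only how far these samples spread, possibly for technical reasons. Library totals ran from 547389 to 900404 reads, and the median gene had 24 to 41 of them. The mean reads of a member had a median of 33.9 in culture and 25.0 in marrow, and 21 members in culture and 33 in marrow averaged under 10 reads, where small changes were not detectable at this depth. Spearman's rho between libraries of a group, across genes, was 0.927 to 0.967. Members took 1.19% to 1.22% of all reads in IL4 cultures, against 1.31% to 1.42% in control cultures, and 0.978% to 1.02% in IL4 marrow, against 0.987% to 1.03% in control marrow.

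Cell type markers moved with the groups. The macrophage list (14 of 16 markers measured) had 1 gene higher and 10 lower in culture, and 7 higher and 4 lower in marrow, and its summed level was 9810 to 12100 RPM in IL4 cultures, 21800 to 24800 RPM in control cultures, 3850 to 4910 RPM in IL4 marrow and 10300 to 12000 RPM in control marrow. Lyz2 alone gave 1520 to 2040 RPM in IL4 marrow, against 7760 to 9680 RPM in control marrow, so the marrow sum mostly followed this gene. The 7 genes higher in marrow included Mrc1, at 92.5 to 308 RPM with IL4, against 12.9 to 18.5 RPM in controls. The monocyte list (10 of 16 measured) had 2 genes higher and 5 lower in culture, and 1 higher and 6 lower in marrow, among them Ccr2 at 40.2 to 55.5 RPM in IL4 marrow against 693 to 815 RPM in control marrow. Its summed level ran the other way, at 27400 to 37500 RPM in IL4 cultures, 1070 to 1660 RPM in control cultures, 28800 to 30300 RPM in IL4 marrow and 8740 to 10500 RPM in control marrow. Chil3 alone gave 23900 to 33700 RPM in IL4 cultures, against 2.22 to 9.72 RPM in control cultures, and 27900 to 29200 RPM in IL4 marrow, against 3170 to 4210 RPM in control marrow. With IL4 the summed level thus mostly followed Chil3 and does not measure monocytes. Neutrophil markers (7 of 20 measured) summed to 44900 to 55800 RPM in IL4 marrow and 59600 to 69400 RPM in control marrow, against 207 to 484 RPM in IL4 cultures and 243 to 350 RPM in control cultures, so the sorted marrow samples held neutrophil transcripts that cultures nearly lacked. The F4/80 gene itself, Emr1 in the tables, was at 64.6 to 152 RPM in IL4 marrow and 43.2 to 100 RPM in control marrow, against 970 to 1180 RPM in IL4 cultures and 2180 to 2680 RPM in control cultures. Shorter lists also differed. Eosinophil and mast cell markers (3 of 14 measured) summed to 312 to 382 RPM in IL4 marrow, against 105 to 123 RPM in control marrow, and endothelial and stromal markers (4 of 9) to 133 to 220 RPM, against 32.3 to 48.9 RPM. Of the endothelial and stromal sum, Pecam1 alone gave 124 to 205 RPM in IL4 marrow, against 30.8 to 46.0 RPM in control marrow. Erythroid markers (2 of 25) summed to 183 to 256 RPM in IL4 marrow, against 1410 to 1470 RPM in control marrow, and B cell markers (3 of 17, all lower in marrow) to 43.7 to 78.4 RPM, against 152 to 171 RPM. T and NK cell markers (2 of 13) summed to 15.7 to 38.4 RPM in IL4 marrow, against 67.9 to 76.9 RPM in control marrow. Of these Il7r fell in marrow and Cd247 did not pass there (adjusted p 0.415), while in culture Il7r rose by 2.08 (adjusted p 0.00224). In culture, progenitor and blast markers (3 of 10) summed to 140 to 261 RPM with IL4, against 1200 to 1280 RPM in controls, and endothelial and stromal markers to 81.8 to 199 RPM, against 677 to 1690 RPM. Pecam1 of that list went the other way in culture, at 13.5 to 38.7 RPM with IL4, against 0 to 1.41 RPM in controls. No measured marker was at 0 in all 14 libraries. In bulk samples of this kind, fewer cells of a type and less RNA per cell cannot be told apart, and the part of these shifts in the changes of the solute carriers was not tested.

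In culture 19 members rose and 49 fell with IL4, 44.4% of the 153, where 40.5% of all genes passed, 7.96% higher and 32.6% lower. The deposited values, which are scaled close to library totals, place the median gene lower in IL4 cultures: the median change was -0.36 (log2) over all genes and -0.33 over the members. When each library was centred on its median, 34 members were higher and 25 lower, against 14.4% and 12.7% of all genes. In marrow 13 members rose and 22 fell, 22.9% of the 153, where 18.2% of all genes passed, 6.70% higher and 11.5% lower. After centring, the marrow counts were 19 higher and 16 lower, against 9.45% and 8.92% of all genes. The count of members lower in marrow was 13 in place of 22 when control library 3 was left out. The values of both groups did not overlap for 67 members in culture and 64 in marrow, where the same held for 37.7% and 37.6% of all genes. Over both directions together, the members thus passed at a share close to that of the transcriptome. By direction in culture, 12.4% of members were higher, against 7.96% of all genes (22.2% against 14.4% after centring), and 32.0% were lower, against 32.6%. The changes of single carriers carry the results below.

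**Figure D1:**
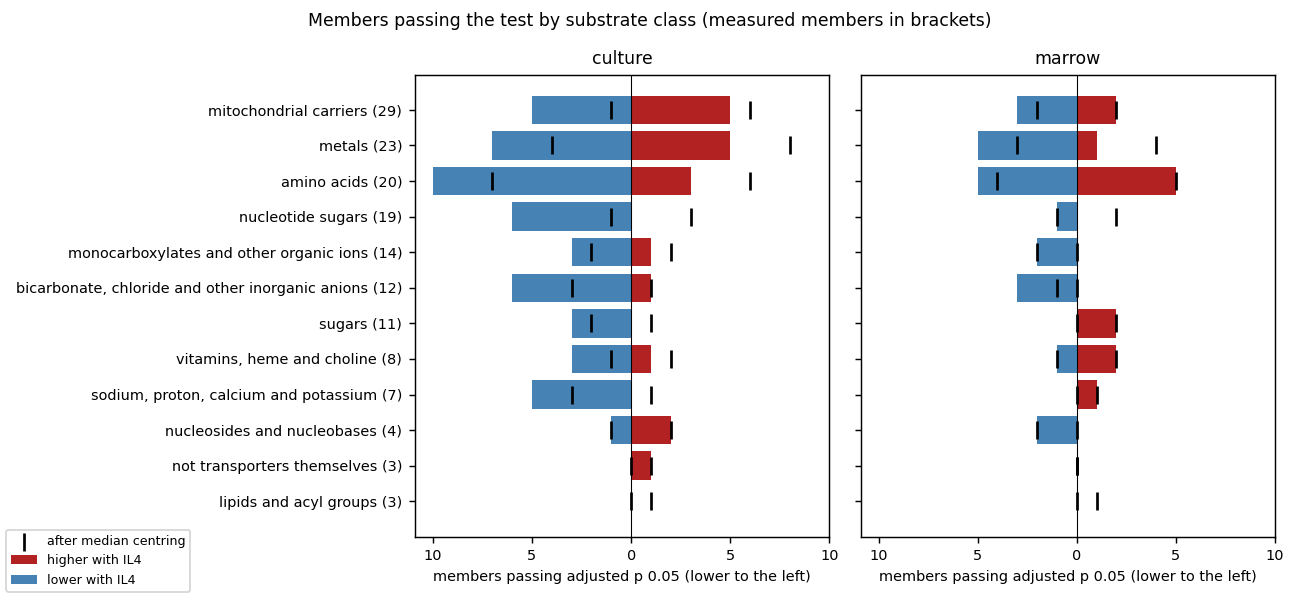
Number of members passing an adjusted p of 0.05 in each substrate class, in culture (left panel) and marrow (right panel), with members higher with IL4 drawn to the right and members lower to the left; black ticks give the counts after median centring and the number measured stands in brackets. Amino acid carriers had 3 higher and 10 lower in culture and 5 higher and 5 lower in marrow. Of all genes, 7.96% were higher and 32.6% lower in culture, and 6.70% were higher and 11.5% lower in marrow.

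The response to IL4 differed between marrow and culture for 41 members (26.8%), tested as the marrow change minus the culture change over all 14 libraries, where 23.1% of all genes passed. It was higher in marrow for 26 members and lower for 15, against 16.6% and 6.45% of all genes. After centring these counts were 15 and 21, against 9.50% and 9.38%, so the direction of this split depends on the scaling. Members that passed in both settings numbered 18. Of them 11 were lower in both, where 5.86% of all genes were, 3 were higher in culture and lower in marrow, where 0.876% of all genes were, and 4 were lower in culture and higher in marrow, where 1.57% of all genes were. None was higher in both with limma (0 of 153, against 1.75% of all genes). At an unadjusted p under 0.05 these were 2, among them Slc30a4, and voom, limma's weighted fit of the recovered reads, gave 1, Slc15a3. After centring 6 members were higher in both, among them Slc23a2, Slc30a4, Slc35b1, Slc39a1 and Slc3a2.

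**Figure D2:**
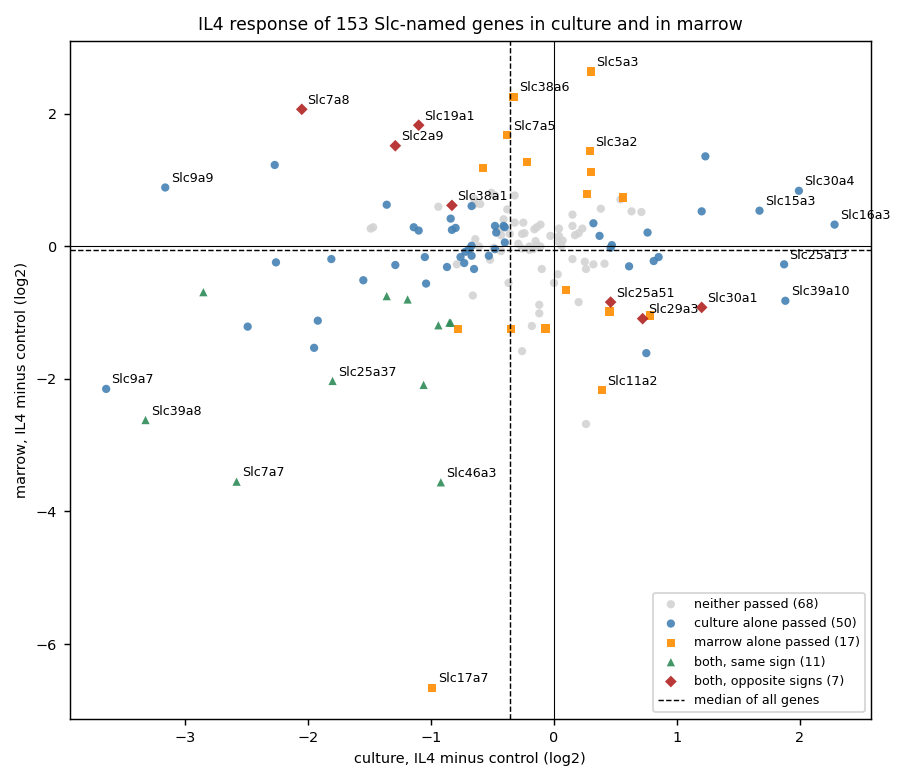
Log2 change of each of the 153 members with IL4 in culture (horizontal axis) and in marrow (vertical axis), with dashed lines at the median of all genes (-0.36 in culture, -0.06 in marrow). The 7 red diamonds passed in both settings with opposite signs, the 11 green triangles passed in both as lower, and Slc17a7 stands lowest in marrow.

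Amino acid carriers included members that changed in opposite directions in the 2 settings and members that fell in both. Of 20 measured, 3 rose and 10 fell in culture (6 and 7 after centring), and 5 rose and 5 fell in marrow (5 and 4 after centring). Of all genes, 7.96% rose and 32.6% fell in culture (14.4% and 12.7% after centring). In marrow 6.70% of all genes rose and 11.5% fell (9.45% and 8.92% after centring). These shares stand beside the counts of every class below. Slc7a8 (chr14:54722209-54781946, minus strand) encodes LAT2, a light chain that exchanges neutral amino acids and is held at the surface by the heavy chain Slc3a2. In culture it was at 68.4, 75.4, 105 and 46.6 RPM with IL4, against 280, 363, 370 and 203 RPM in controls. In marrow it was at 47.1, 34.7 and 68.8 RPM with IL4, against 9.27, 12.3 and 11.5 RPM in controls. The groups did not overlap in either setting: Slc7a8 fell by 2.05 ± 0.27 (SE, adjusted p 0.000295) in culture and rose by 2.07 ± 0.33 (adjusted p 0.00287) in marrow. The marrow response was above the culture response by 4.12 ± 0.42 (log2, adjusted p 1.72e-05).

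The heavy chain and a second light chain that pairs with it were higher in IL4 marrow. Slc7a5 (chr8:121881150-121907694, minus strand), the light chain LAT1, which imports large neutral amino acids such as leucine, was at 223, 309 and 289 RPM in IL4 marrow, against 88.0, 76.9 and 87.8 RPM in control marrow. It rose by 1.68 ± 0.17 (adjusted p 0.000363). In culture it was at 39.1, 30.4, 24.3 and 4.51 RPM with IL4 and 24.4, 34.0, 31.5 and 15.5 RPM in controls, and the groups overlapped (adjusted p 0.619). The difference between the settings did not pass (2.06 ± 0.73, adjusted p 0.0549). Slc3a2, the heavy chain CD98, was at 258, 332 and 296 RPM in IL4 marrow, against 100, 145 and 86.3 RPM in control marrow, a rise of 1.44 ± 0.19 (adjusted p 0.00138). In culture it changed by 0.29 ± 0.18 (adjusted p 0.223), and the marrow response was above it by 1.15 ± 0.29 (adjusted p 0.0112). After centring its culture change was 0.65 and passed (adjusted p 0.0237).

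A further light chain, Slc7a7, and the uniporter Slc43a2 fell in both settings, the marrow fall of Slc43a2 not under every alternative. Slc7a7 (chr14:54369442-54417780, minus strand) encodes y+LAT1, which exports cationic amino acids such as arginine in exchange for neutral amino acids and sodium, and whose loss in humans causes lysinuric protein intolerance. It was at 7.33, 4.86, 2.86 and 7.51 RPM in IL4 cultures, against 43.3, 37.2, 34.6 and 26.8 RPM in control cultures. In marrow 2 of 3 IL4 libraries had no read and the other had 8.44 RPM, against 18.5, 23.1 and 24.5 RPM in controls. Slc7a7 fell by 2.58 ± 0.29 (adjusted p 0.000139) in culture and fell by 3.55 ± 0.80 (adjusted p 0.0146) in marrow, the second with adjusted p 0.0522 without control library 3. Its exons share at least 232 bases with Oxa1l on the opposite strand, and whether the counting used strand is not given in the sources used here, so reads of the overlap cannot be told apart. The same holds for at least 548 exon bases of Slc43a2, 425 of Slc15a4 and 381 of Slc25a37, which overlap other annotated genes. Slc43a2, the uniporter LAT4 of branched-chain amino acids, was at 321, 269, 325 and 428 RPM in IL4 cultures, against 822, 868, 762 and 969 RPM in control cultures. It fell by 1.36 ± 0.15 (adjusted p 0.000112) there. In marrow it fell by 0.75 ± 0.21 (adjusted p 0.0357), a call that was lost after centring (adjusted p 0.0667) and without IL4 library 2 or any of the 3 control libraries (adjusted p 0.0623 to 0.115).

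Slc16a10, the aromatic amino acid carrier TAT1, fell by 1.06 ± 0.15 in culture (adjusted p 0.000508) and by 2.09 ± 0.43 in marrow (adjusted p 0.00978), where it was at 10.5, 36.5 and 42.2 RPM with IL4, against 119, 100 and 115 RPM in controls. Slc15a4 and Slc15a3 encode proton-coupled carriers of histidine and small peptides in the lysosome membrane, and they moved apart in culture. Slc15a4 was at 68.4, 66.9, 63.0 and 63.1 RPM in IL4 cultures, against 91.1, 133, 134 and 121 RPM in control cultures, and at 27.9, 23.7 and 25.3 RPM in IL4 marrow, against 66.4, 64.6 and 44.6 RPM in control marrow. It fell by 0.85 ± 0.14 (adjusted p 0.00122) in culture and by 1.15 ± 0.19 (adjusted p 0.00334) in marrow. Slc15a3 (chr19:10839727-10859362) was at 759, 771, 766 and 714 RPM in IL4 cultures, against 248, 118, 181 and 572 RPM in control cultures. IL4 libraries lay close together while control library 4 stood near them, and the rise was 1.67 ± 0.38 (adjusted p 0.00686). In marrow Slc15a3 changed by 0.54 ± 0.31 (adjusted p 0.259), with all IL4 libraries above all controls.

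Glutamine and creatine carriers showed both directions. Slc38a1 (SNAT1, a sodium-coupled glutamine importer) was at 94.1, 59.6, 77.3 and 69.1 RPM in IL4 cultures, against 150, 154, 135 and 97.4 RPM in control cultures, and at 199, 227 and 233 RPM in IL4 marrow, against 136, 138 and 151 RPM in control marrow. It fell by 0.83 ± 0.18 (adjusted p 0.00526; 0.0568 after centring) in culture and rose by 0.62 ± 0.12 (adjusted p 0.00702) in marrow, a difference of 1.46 ± 0.24 (adjusted p 0.000751). Its family member Slc38a6 was at 22.7, 31.1 and 55.5 RPM in IL4 marrow, against 7.72, 6.15 and 5.75 RPM in control marrow. That rise was 2.26 ± 0.32 (adjusted p 0.0016), against a culture change of -0.33 ± 0.14 (adjusted p 0.0816), and the difference of 2.60 ± 0.33 passed (adjusted p 0.000104). The glutamine carriers Slc38a2 and Slc1a5 did not pass in culture (0.04 and 0.41) or marrow (0.16 and -0.26). For Slc1a5 the culture change had an adjusted p of 0.0508 and passed after centring (0.77, adjusted p 0.00347). Its difference between the settings was -0.68 (adjusted p 0.0429) and held in 4 of the 14 fits that left out a library. Slc6a8, the creatine importer, was at 238, 277, 283 and 162 RPM in IL4 cultures, against 83.3, 93.9, 83.4 and 151 RPM in control cultures, a rise of 1.23 ± 0.23 (adjusted p 0.00252). Marrow libraries held at most 3.65 RPM of it. Among lysosomal carriers, Slc38a9, which senses arginine for mTORC1, fell by 0.98 in marrow (a call held in 2 of the 6 fits that left out a library), and Slc36a1, which exports small neutral amino acids, fell by 1.05 in culture.

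**Figure D3:**
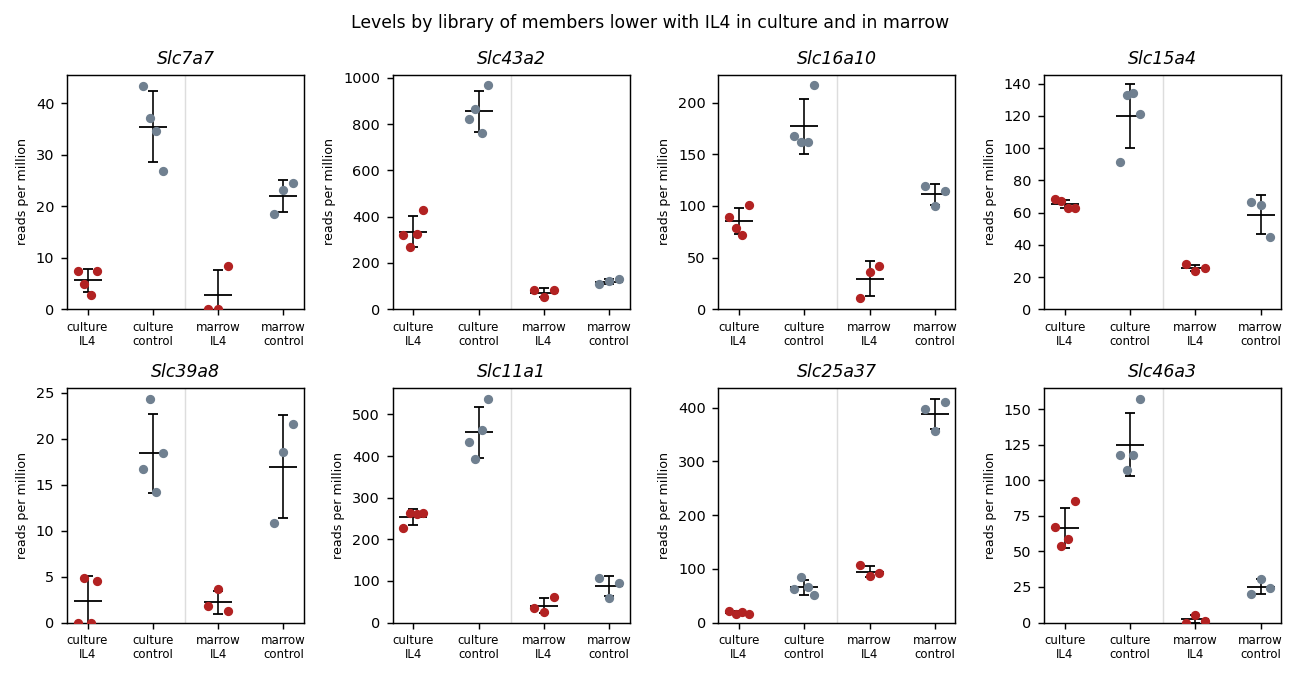
RPM by library for 8 of the 11 members lower with IL4 in both settings, in IL4 and control cultures (4 libraries each) and IL4 and control marrow (3 each), with the mean and SD as a bar, which is clipped at 0. In marrow the highest IL4 library of Slc11a1 (60.3 RPM) passes the lowest control (60.0 RPM), and the groups of the other panels do not overlap in either setting.

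Sugar carriers that passed on the deposited values fell in culture and rose in marrow. Of all genes, 32.6% fell in culture and 6.70% rose in marrow. Of 11 measured, 3 fell and 0 rose in culture (2 and 1 after centring), and 2 rose and 0 fell in marrow. Beside these counts of 0 from limma, 0 sugar carriers had an unadjusted p under 0.05 in that direction and 0 passed with voom. Their median change was -0.65 in culture and 0.42 in marrow, beside -0.36 and -0.06 over all genes. Slc2a9 (chr5:38349273-38503143, minus strand), a carrier of urate and hexoses, was at 13.4, 10.9, 15.7 and 9.01 RPM in IL4 cultures, against 36.7, 32.4, 23.6 and 29.7 RPM in control cultures. In marrow it was at 48.9, 56.6 and 70.0 RPM with IL4, against 26.3, 18.5 and 15.8 RPM in controls. The groups were apart in both settings in opposite directions. Slc2a9 fell by 1.29 ± 0.23 in culture (adjusted p 0.00204) and rose by 1.52 ± 0.26 in marrow (adjusted p 0.00392), a difference of 2.80 ± 0.35 (adjusted p 7.83e-05). Slc5a3, the sodium-coupled myo-inositol importer, was at 8.73, 49.3 and 20.5 RPM in IL4 marrow, against 1.54, 1.54 and 7.19 RPM in control marrow. It rose by 2.64 ± 0.65 (adjusted p 0.023), but not without IL4 library 2, IL4 library 3, control library 1 or control library 2 (adjusted p 0.0656 to 0.0774). At least 159 of its exon bases are shared with Mrps6 on the same strand. Slc45a4, classed here with the sugar carriers by its family, fell by 1.29 ± 0.22 in culture (adjusted p 0.0015) and changed by -0.28 ± 0.25 in marrow (adjusted p 0.488). The glucose carrier Slc2a3 (GLUT3) changed by -0.94 in culture and 0.60 in marrow and passed in neither.

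Among carriers of lactate, pyruvate and other organic ions, 1 rose and 3 fell of 14 in culture (2 and 2 after centring), and 2 fell in marrow. Slc16a3 (chr11:120948480-120960868), the lactate exporter MCT4, was at 236, 300, 225 and 99.2 RPM in IL4 cultures, against 47.8, 47.0, 44.1 and 26.8 RPM in control cultures. It rose by 2.28 ± 0.32 (adjusted p 0.000519), and library 4 was lowest in both groups. In marrow it was at 140, 124 and 186 RPM with IL4 and 119, 123 and 111 RPM in controls (0.33 ± 0.18, adjusted p 0.239), and the responses differed by -1.95 ± 0.44 (adjusted p 0.00544). Slc16a1 (MCT1), which moves lactate either way, was at 68.1, 73.1 and 88.1 RPM in IL4 marrow, against 175, 134 and 167 RPM in control marrow. It fell by 1.04 ± 0.22 there (adjusted p 0.0102) and changed by 0.78 ± 0.42 in culture (adjusted p 0.161), a difference of -1.82 ± 0.53 (adjusted p 0.0235). Slc16a6, a further member of that family, was at 18.3, 18.2, 24.3 and 18 RPM in IL4 cultures, against 45.5, 76.1, 58.2 and 57.9 RPM in control cultures, and fell by 1.55 ± 0.20 (adjusted p 0.000296). At least 611 of its exon bases overlap Amz2 on the opposite strand.

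The deepest fall of any member in marrow was that of Slc17a7 (chr7:45163949-45176142), the vesicular glutamate carrier VGLUT1 known from neurons. No read was seen in the 3 IL4 marrow libraries, against 83, 25 and 67 reads (128, 38.4 and 96.4 RPM) in the controls. With 3 reads over the group as the floor, it was at least 57.1-fold lower with IL4 (adjusted p 5.85e-05). In culture the levels scattered within groups, at 18.3, 23.1, 0 and 76.6 RPM with IL4 and 26.7, 47.0, 1.57 and 123 RPM in controls, and library 3 was lowest and library 4 highest in both groups. The culture change was -0.99 ± 1.45 (adjusted p 0.61), and the responses differed by -5.67 ± 1.92 (adjusted p 0.0453), which held in 2 of the 14 fits that left out a library (adjusted p up to 0.0971).

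Metal carriers divided by gene. Of 23 measured, 5 rose and 7 fell in culture (8 and 4 after centring), and 1 rose and 5 fell in marrow (4 and 3 after centring). Zinc carriers were among both the rises and the falls in culture. Slc39a10 (ZIP10, chr1:46807544-46892852, minus strand), which brings zinc into the cytosol, was at 178, 142, 153 and 200 RPM in IL4 cultures, against 36.7, 35.6, 40.9 and 74.8 RPM in control cultures. Slc30a1 (ZnT1, chr1:191906767-191913247), which exports zinc across the plasma membrane, was at 173, 169, 173 and 152 RPM in IL4 cultures, against 61.1, 61.5, 66.1 and 109 RPM in control cultures. Slc30a4 (ZnT4), which fills vesicles with zinc, was at 63.5, 87.6, 83.0 and 87.1 RPM in IL4 cultures, against 15.5, 30.8, 14.2 and 21.2 RPM in control cultures. These groups did not overlap, and the rises were 1.88 ± 0.24, 1.20 ± 0.18 and 1.99 ± 0.23 (adjusted p 0.000296, 0.000715 and 0.000155). In marrow the first and second went the other way. Slc39a10 was at 10.5, 12.8 and 13.3 RPM with IL4, against 21.6, 24.6 and 20.1 RPM in controls, a change of -0.82 ± 0.30 that did not pass (adjusted p 0.0868). Slc30a1 was at 24.4, 21.9 and 24.1 RPM with IL4, against 40.2, 41.5 and 54.7 RPM in controls, and fell by 0.92 ± 0.15 (adjusted p 0.00321). The marrow change of Slc30a4 had the same sign as in culture, at 27.9, 25.6 and 32.6 RPM with IL4, against 15.4, 10.8 and 23.0 RPM in controls. The groups were apart, and the change of 0.84 ± 0.26 did not pass (adjusted p 0.0547) but did after centring (0.94, adjusted p 0.0372). The responses of the first and second differed between the settings, by -2.70 ± 0.35 (adjusted p 0.000114) for Slc39a10 and by -2.11 ± 0.25 (adjusted p 6.11e-05) for Slc30a1. At least 468 exon bases of Slc30a1 overlap an antisense gene.

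Slc39a8 (ZIP8, chr3:135825279-135888572), an importer of zinc and manganese, fell in both settings. It was at 0, 4.86, 0 and 4.51 RPM in IL4 cultures, against 16.7, 24.3, 14.2 and 18.4 RPM in control cultures, and at 1.75, 3.65 and 1.21 RPM in IL4 marrow, against 10.8, 18.5 and 21.6 RPM in control marrow. From few reads, it fell by 3.32 ± 0.70 in culture (adjusted p 0.00467) and fell by 2.62 ± 0.41 in marrow (adjusted p 0.00259). Slc11a1 encodes NRAMP1, a phagosomal carrier of iron and manganese, and the reads give its RNA, not the function of the protein in this mouse strain. Slc11a1 was at 226, 264, 261 and 264 RPM in IL4 cultures, against 433, 392, 463 and 538 RPM in control cultures. It fell by 0.84 ± 0.12 (adjusted p 0.000665). In marrow it was at 34.9, 25.6 and 60.3 RPM with IL4 and 108, 60.0 and 95.0 RPM in controls, and the highest IL4 library reached the lowest control. That fall of 1.15 ± 0.32 (adjusted p 0.0371) was lost after centring (adjusted p 0.0553) and without IL4 library 1, IL4 library 2, control library 1 or control library 3 (adjusted p 0.0912 to 0.118). Slc11a2 (DMT1), the related iron importer, was at 5.24, 7.31 and 21.7 RPM in IL4 marrow, against 51.0, 49.2 and 38.8 RPM in control marrow. It fell by 2.17 ± 0.47 there (adjusted p 0.0121) and changed by 0.39 ± 0.22 in culture (adjusted p 0.174), a difference of -2.57 ± 0.51 (adjusted p 0.00246). After centring the culture change of Slc11a2 was 0.76 and passed (adjusted p 0.0321). Of the other metal carriers, the copper importer Slc31a1 fell by 1.04 in culture, the magnesium carrier Slc41a2 rose by 1.20 in culture, and the zinc importer Slc39a6 rose by 1.12 in marrow, a call that held in 1 of the 6 fits that left out a library. The zinc carriers Slc30a5, Slc39a3 and Slc39a7 fell in culture by 1.14, 0.67 and 0.48 (adjusted p 0.00245, 0.021 and 0.0135). After centring only Slc30a5 of these passed (adjusted p 0.0198), and its responses differed between the settings by 1.43 ± 0.29 (adjusted p 0.00302).

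Ion exchangers held 2 of the 3 largest falls in culture. Of the 7 carriers of sodium, protons, calcium and potassium, 5 fell in culture with limma (3 after centring). In marrow 0 fell with limma, with 2 lower at an unadjusted p under 0.05 and the same 2, Slc8a1 and Slc9a7, with voom. Slc9a9 (NHE9, chr9:94669909-95230445) and Slc9a7 (NHE7, chrX:20105754-20291807, minus strand) are sodium-proton exchangers of endosomes and of the trans-Golgi network. Slc9a9 was at 26.9, 20.7, 17.2 and 16.5 RPM in IL4 cultures, against 179, 217, 187 and 155 RPM in control cultures, and fell by 3.16 ± 0.18 (adjusted p 1.65e-06). In marrow it was at 33.2, 42.0 and 16.9 RPM with IL4 and 12.4, 21.5 and 12.9 RPM in controls, with overlap (0.89 ± 0.35, adjusted p 0.113). The responses differed by 4.05 ± 0.40 (adjusted p 1.31e-05), close in size to that of Slc7a8. Slc9a7 was at 2.44, 2.43, 7.16 and 3.0 RPM in IL4 cultures, against 51.1, 37.2, 39.4 and 81.9 RPM in control cultures, and fell by 3.64 ± 0.40 (adjusted p 0.000109). Its change in marrow, -2.15 ± 0.67 from few reads, did not pass (adjusted p 0.0552). Slc8a1 (NCX1), the sodium-calcium exchanger, was at 19.5, 19.5, 27.2 and 55.6 RPM in IL4 cultures, against 141, 159, 172 and 160 RPM in control cultures, and fell by 2.49 ± 0.31 (adjusted p 0.000218).

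Of 12 carriers of bicarbonate, chloride, phosphate and sulfate, 1 rose and 6 fell in culture (1 and 3 after centring), and 3 fell in marrow (1 after centring). Slc26a11, an anion carrier, was at 20.8, 12.2, 24.3 and 31.6 RPM in IL4 cultures, against 120, 97.2, 88.1 and 113 RPM in control cultures. It fell by 2.27 ± 0.25 (adjusted p 0.000121), against a marrow change of 1.23 ± 0.54 (adjusted p 0.154), and the responses differed by 3.50 ± 0.62 (adjusted p 0.00116). Slc20a1 (PiT1), the sodium-phosphate importer, was at 48.9, 67.6 and 73.6 RPM in IL4 marrow, against 162, 137 and 150 RPM in control marrow, and fell by 1.25 ± 0.19 (adjusted p 0.00241). Slc12a9, a member of the cation-chloride cotransporter family, fell by 1.19 ± 0.16 in culture (adjusted p 0.000354). Its fall of 0.80 ± 0.23 in marrow (adjusted p 0.0418) was lost after centring (adjusted p 0.0731) and without IL4 library 2 or 3 or any control library (adjusted p 0.0687 to 0.125).

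**Figure D4:**
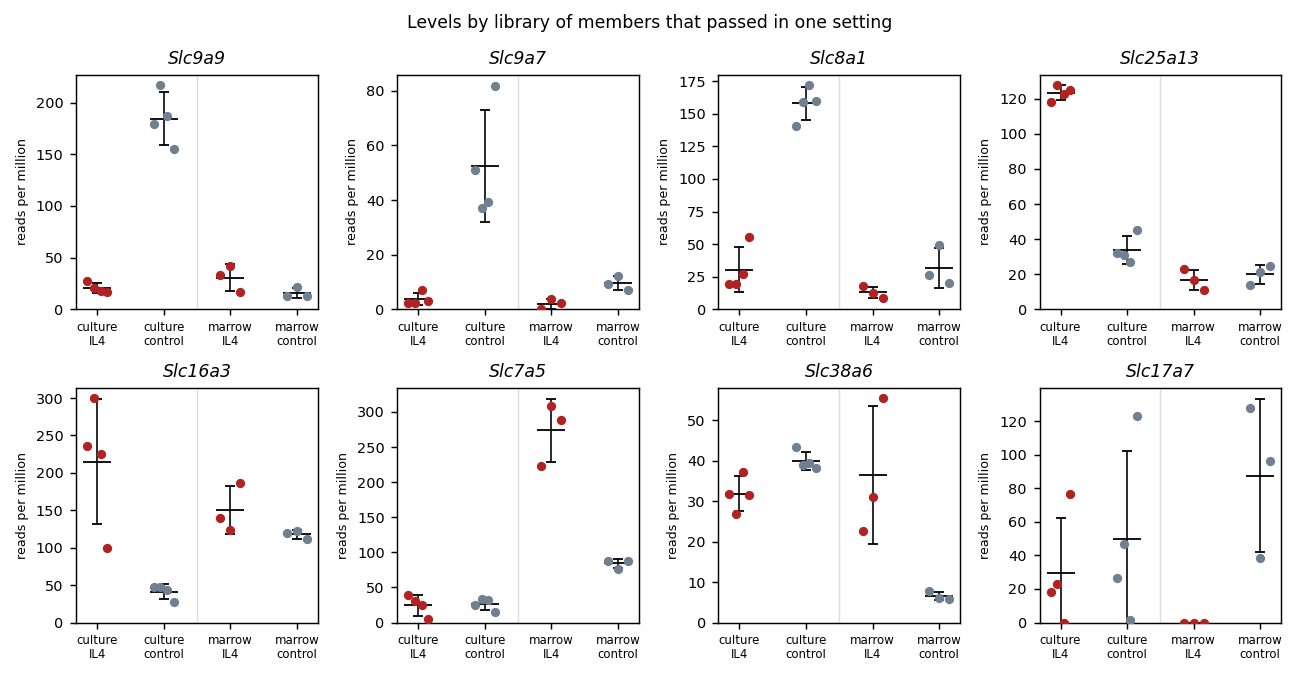
RPM by library for 8 members that passed in a single setting, with the 4 groups in the order IL4 culture, control culture, IL4 marrow and control marrow, and the mean and SD as a bar, clipped at 0. Slc9a9, Slc9a7 and Slc8a1 were lower and Slc25a13 and Slc16a3 higher in IL4 cultures, Slc7a5 and Slc38a6 were higher in IL4 marrow, and Slc17a7 had 0 reads in all 3 IL4 marrow libraries.

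Of 29 mitochondrial carriers measured, 5 rose and 5 fell in culture (6 and 1 after centring), and 2 rose and 3 fell in marrow. Most of them thus did not pass, as held for all genes, of which 40.5% passed in culture and 18.2% in marrow. Slc25a13 (citrin, chr6:6041218-6217173, minus strand), which exchanges mitochondrial aspartate for cytosolic glutamate in the malate-aspartate shuttle, was at 118, 128, 123 and 125 RPM in IL4 cultures, against 32.2, 30.8, 26.8 and 45.2 RPM in control cultures. It rose by 1.87 ± 0.15 (adjusted p 1.95e-05) and changed by -0.27 ± 0.27 in marrow (adjusted p 0.543), a difference of -2.15 ± 0.33 (adjusted p 0.000407). Its close relative Slc25a12 (aralar) changed by -0.17 in culture and -0.04 in marrow and did not pass. Slc25a37 (mitoferrin-1, chr14:69241848-69285112, minus strand), which brings iron into mitochondria and is known from erythroid cells, fell in both settings. It was at 20.8, 15.8, 20.0 and 16.5 RPM in IL4 cultures, against 62.2, 84.2, 66.1 and 50.8 RPM in control cultures, and at 107, 85.9 and 91.7 RPM in IL4 marrow, against 398, 357 and 411 RPM in control marrow. It fell by 1.80 ± 0.16 in culture (adjusted p 3.6e-05) and fell by 2.03 ± 0.13 in marrow (adjusted p 4.59e-05). Of the 25 erythroid markers listed, 2 were measured, Car2 and Tfrc, and their summed level was 183 to 256 RPM in IL4 marrow against 1410 to 1470 RPM in control marrow, but 421 to 1170 RPM in IL4 cultures against 59.3 to 160 RPM in control cultures. In marrow Slc25a37 and these 2 markers fell, and in culture it fell while they rose. The part of erythroid cells in the changes of Slc25a37 was not tested.

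Slc25a51, the mitochondrial NAD carrier, was at 120, 152, 140 and 117 RPM in IL4 cultures, against 76.6, 100, 102 and 103 RPM in control cultures, and at 92.5, 89.5 and 79.6 RPM in IL4 marrow, against 151, 157 and 163 RPM in control marrow. It rose by 0.46 ± 0.14 in culture (adjusted p 0.0229), not without IL4 library 2, IL4 library 3 or control library 1 (adjusted p 0.0595 to 0.0664), and fell by 0.84 ± 0.12 in marrow (adjusted p 0.00154). The responses differed by -1.31 ± 0.19 (adjusted p 0.000228). Slc25a10, the dicarboxylate carrier, fell by 0.94 ± 0.19 in culture (adjusted p 0.00406; 0.0501 after centring). Its marrow fall of 1.19 ± 0.34 (adjusted p 0.0419) was lost after centring (adjusted p 0.0573) and when any library but IL4 library 3 was left out (adjusted p 0.0795 to 0.122). The adenine nucleotide carrier Slc25a5 rose by 0.47 in culture, and the folate carrier Slc25a32 by 0.81. In marrow the acylcarnitine carrier Slc25a20 rose by 1.28 and the ornithine carrier Slc25a15 by 1.18, the second in only 1 of the 6 fits that left out a library.

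Nucleoside and nucleobase carriers numbered 4. Slc29a3 (ENT3, chr10:60712072-60752794, minus strand), which lets nucleosides out of lysosomes, was at 249, 208, 229 and 228 RPM in IL4 cultures, against 122, 133, 134 and 167 RPM in control cultures. In marrow it was at 26.2, 32.9 and 31.4 RPM with IL4, against 77.2, 61.5 and 57.5 RPM in controls. It rose by 0.72 ± 0.13 in culture (adjusted p 0.00221) and fell by 1.09 ± 0.15 in marrow (adjusted p 0.00145), a difference of -1.81 ± 0.20 (adjusted p 2.96e-05). Slc43a3, a purine nucleobase carrier, was at 3.66, 1.22, 1.43 and 1.5 RPM in IL4 cultures, against 22.2, 25.9, 20.5 and 7.06 RPM in control cultures, and at 133, 132 and 94.1 RPM in IL4 marrow, against 198, 178 and 199 RPM in control marrow. It fell by 2.85 ± 0.44 in culture (adjusted p 0.000849) and fell by 0.69 ± 0.17 in marrow (adjusted p 0.0224), the second lost without IL4 library 3, control library 1 or control library 3 (adjusted p 0.059 to 0.0763). Slc28a2, a sodium-coupled nucleoside importer, rose by 0.76 in culture, in 3 of the 8 fits that left out a library.

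**Figure D5:**
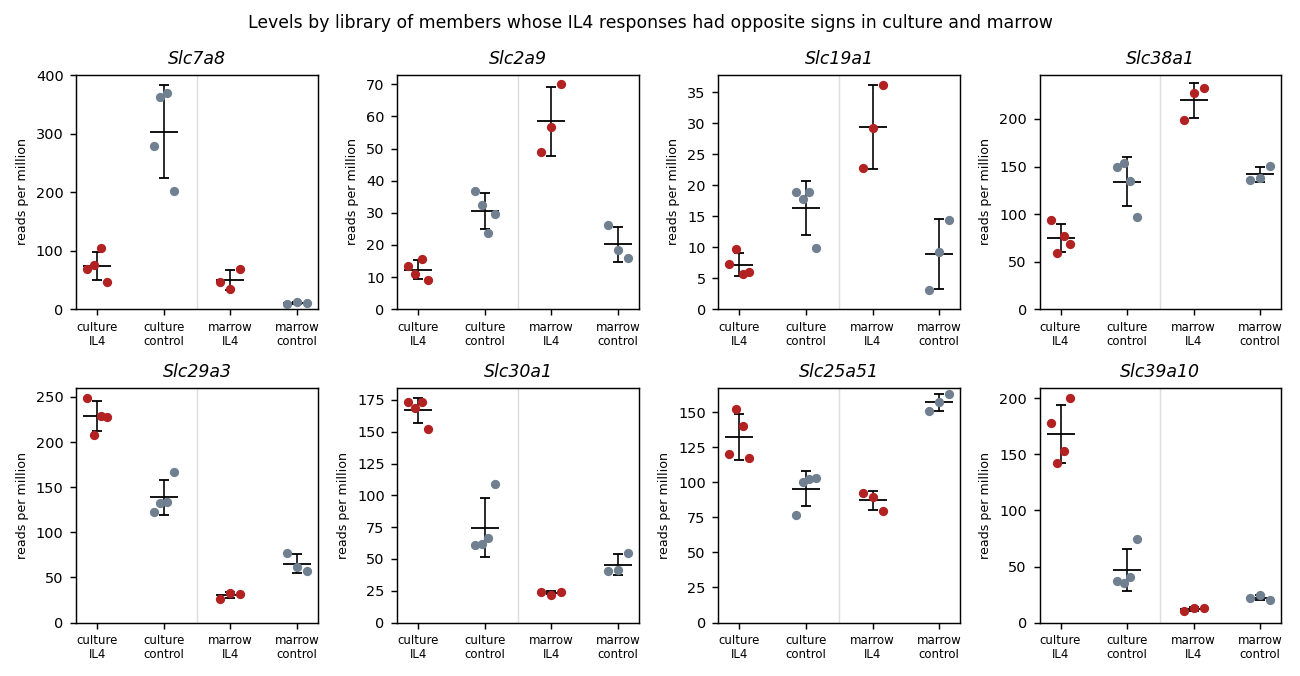
RPM by library for 8 members whose changes with IL4 had opposite signs in culture and marrow, with the 4 groups in the order IL4 culture, control culture, IL4 marrow and control marrow, and the mean and SD as a bar. Slc7a8, Slc2a9, Slc19a1 and Slc38a1 were lower in IL4 cultures and higher in IL4 marrow, and Slc29a3, Slc30a1 and Slc25a51 the reverse; Slc39a10 did not pass in marrow.

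Vitamin and heme carriers had 1 that rose and 3 that fell of 8 in culture (2 and 1 after centring), and 2 that rose and 1 that fell in marrow. Slc19a1, the reduced folate carrier, was at 7.33, 9.73, 5.73 and 6.01 RPM in IL4 cultures, against 18.9, 17.8, 18.9 and 9.89 RPM in control cultures, and at 22.7, 29.2 and 36.2 RPM in IL4 marrow, against 3.09, 9.23 and 14.4 RPM in control marrow. It fell by 1.10 ± 0.24 in culture (adjusted p 0.00495; 0.189 after quantile normalization) and rose by 1.83 ± 0.43 in marrow (adjusted p 0.0181; 0.0684 without IL4 library 3), a difference of 2.93 ± 0.53 (adjusted p 0.00127). Slc46a3, a lysosomal carrier, was at 67.2, 53.5, 58.7 and 85.6 RPM in IL4 cultures, against 118, 107, 118 and 157 RPM in control cultures, and at 0, 5.48 and 1.21 RPM in IL4 marrow, against 20.1, 30.8 and 24.5 RPM in control marrow. It fell by 0.92 ± 0.19 (adjusted p 0.00448; 0.0717 after centring) and by 3.56 ± 0.68 (adjusted p 0.00678), and the responses differed by -2.64 ± 0.67 (adjusted p 0.0113). Slc23a2 (SVCT2), the vitamin C importer, was at 54.1, 53.0 and 48.2 RPM in IL4 marrow, against 32.4, 30.8 and 25.9 RPM in control marrow, a rise of 0.79 ± 0.15 (adjusted p 0.00744). The heme carrier Slc48a1 rose by 0.32 in culture, in 2 of the 8 fits that left out a library. Of the 3 carriers of fatty acids and acetyl-CoA (Slc27a1, Slc27a4, Slc33a1), 0 passed in culture or marrow with limma. In marrow Slc27a4, a fatty acid carrier, was higher by 0.56 at an unadjusted p of 0.0108 and passed with voom, and in culture 0 were under 0.05 unadjusted and 0 passed with voom. After centring 1 was higher in each setting, Slc27a1 in culture (0.40, adjusted p 0.0337) and Slc27a4 in marrow (0.66, adjusted p 0.0407).

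Nucleotide sugar carriers of the Golgi and endoplasmic reticulum, 19 in number, had 6 that fell and 0 that rose in culture with limma on the deposited values (0 also with voom and at an unadjusted p under 0.05), but 3 higher and 1 lower after centring. Their median was -0.43 in culture and 0.08 in marrow, close to that of all genes. Slc35c2, a Golgi member of the family, was at 24.4, 30.4, 15.7 and 30.0 RPM in IL4 cultures, against 52.2, 81.0, 70.8 and 53.7 RPM in control cultures. It fell by 1.36 ± 0.26 (adjusted p 0.00288), and its marrow change was 0.63 ± 0.20 (adjusted p 0.0604; 0.0301 after centring), with a difference of 1.98 ± 0.35 (adjusted p 0.00114). Slc35a1, the CMP-sialic acid carrier, fell by 0.69 ± 0.19 in culture (adjusted p 0.0151), a call lost after centring (adjusted p 0.211). In marrow Slc35e3 was the 1 member of this class that passed with limma on the deposited values. It was at 6.98, 7.31 and 8.44 RPM with IL4, against 20.1, 20.0 and 17.3 RPM in controls. The fall was 1.25 ± 0.27 (adjusted p 0.0129, and 0.051 without control library 2). While 0 of the class rose in marrow, 4 were higher at an unadjusted p under 0.05 (Slc35b1, Slc35b4, Slc35c2 and Slc35d2). With voom Slc35c2 passed as higher, and after centring 2 were higher. Of 3 members that carry the Slc symbol without being transporters, Slc9a3r1, the scaffold NHERF1, rose by 0.37 ± 0.11 in culture (adjusted p 0.0255). That call was lost without IL4 library 1, IL4 library 2 or control library 2 (adjusted p 0.0514 to 0.0693).

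Carriers outside the Slc symbols were counted beside the members. Of 31 solute carriers under other symbols, 1 rose and 7 fell in culture and 2 rose and 2 fell in marrow, where 40.5% and 18.2% of all genes passed. After centring these counts were 4 and 2 in culture and 2 and 1 in marrow, so the direction of the culture split depends on the scaling. Tmem165, a Golgi ion carrier, rose by 1.33 ± 0.20 (adjusted p 0.00084) in culture, and Nipal3 fell there by 1.39 ± 0.24 (adjusted p 0.00152). In marrow Nipa1 fell by 2.08 ± 0.29 (adjusted p 0.00151), and Slco2b1, an organic anion carrier, rose by 3.33 ± 0.73 (adjusted p 0.0132). Of 23 ABC transporters, pumps driven by ATP, 4 rose and 13 fell in culture (6 and 10 after centring). In marrow 4 of them rose and 8 fell (5 and 7 after centring). Larger shares of this list thus passed than the 40.5% of all genes in culture and 18.2% in marrow. Abcc3, an exporter of organic anions, fell by 3.60 ± 0.31 in culture (adjusted p 2.47e-05). The peroxisomal fatty acid carrier Abcd2 rose by 1.50 ± 0.14 in culture (adjusted p 3.71e-05) and by 1.46 ± 0.16 in marrow (adjusted p 0.000455). Abcb4, a phospholipid floppase, fell by 2.98 ± 0.31 in marrow (adjusted p 0.000403), and the mitochondrial Abcb10 by 2.23 ± 0.21 (adjusted p 0.000248).

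Since IL4 acts through STAT6, the promoters of the members were read for the STAT6-type motif TTCNNNNGAA, which reads the same on both strands, and for the other STAT-type motif TTCNNNGAA. RefSeq promoter windows (GRCm38.p6, 250 bases before to 50 after a start) were held for 116 of the 153 members, 153 windows in all. The STAT6-type motif stood in 5.88% of these windows, against 5.36% of the 9365 windows of genes in both tables and 6.95% of all 32851 windows, and the other motif in 5.23%, against 6.65% and 8.30%. By gene, 6.90% of the members with a window held the STAT6-type motif, against 6.43% of the measured genes with a window. It was held by 4 of 36 members that fell in culture, 0 of 9 that rose in marrow and 1 of 17 that fell in marrow. Of 14 members that rose in culture and had a window, 2 held the STAT6-type motif, Slc25a25 (an ATP-magnesium and phosphate carrier of mitochondria, which rose by 0.85, in 3 of the 8 fits that left out a library) and Slc28a2. Of the 11 members lower in both settings, Slc43a2 held it. These windows are printed 5′ to 3′ on the strand of the gene, with the motif in capitals, as examples of a member that rose beside a member that fell; the genes were chosen for holding the motif. A match is a description of these letters, not a binding site. In the first the motif begins 31 bases after the start, in the others 201 and 211 bases before it. The windows lie at chr2:32424017-32424316 (minus strand), chr2:122426185-122426484 (plus strand) and chr11:75531862-75532161 (plus strand).
Slc25a25: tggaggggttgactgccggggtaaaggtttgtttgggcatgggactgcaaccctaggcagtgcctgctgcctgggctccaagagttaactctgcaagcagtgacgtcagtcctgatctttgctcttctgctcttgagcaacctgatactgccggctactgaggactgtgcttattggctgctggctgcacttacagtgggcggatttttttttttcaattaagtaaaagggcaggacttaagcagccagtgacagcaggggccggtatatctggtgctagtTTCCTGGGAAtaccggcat
Slc28a2: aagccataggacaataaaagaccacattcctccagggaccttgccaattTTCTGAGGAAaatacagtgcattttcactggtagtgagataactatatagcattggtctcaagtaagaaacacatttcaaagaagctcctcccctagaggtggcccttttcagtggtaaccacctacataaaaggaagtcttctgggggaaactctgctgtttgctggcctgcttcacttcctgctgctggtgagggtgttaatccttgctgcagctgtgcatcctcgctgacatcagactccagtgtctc
Slc43a2: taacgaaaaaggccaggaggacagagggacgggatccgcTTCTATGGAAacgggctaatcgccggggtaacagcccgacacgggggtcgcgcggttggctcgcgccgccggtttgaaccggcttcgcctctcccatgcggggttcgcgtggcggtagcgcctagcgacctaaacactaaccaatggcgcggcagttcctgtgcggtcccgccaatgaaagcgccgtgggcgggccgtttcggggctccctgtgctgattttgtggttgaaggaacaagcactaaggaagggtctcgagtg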

How the data were processed

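Deposited values of 14 RNA-seq libraries were used, 1 table for culture and 1 for marrow, each with 9474 genes. Per the labels' protocols, libraries were made with the TruSeq RNA kit v2; the submitters' processing notes name TopHat2 2.0.13, bcl2fastq and the build mm10. Counter, strandedness, gene filter and normalization: not given in the sources used here. The deposited values of the authors are on a log2 scale: whole reads with 0.5 added, in log2, plus an offset for each gene and an offset for each library, as the values show. Solving for these gave whole reads uniquely for 9450 genes (99.7%), all 158 Slc rows among them, with a largest residual of 0.000985 (log2). RPM are these reads over each library's total. The offset of each library plus the log2 of its total was 19.6388 to 19.6518, so the deposited values were scaled close to these totals. Depth limits the precision, and bounds cover counting error only. The unused columns of library values number 0, and the deposited fold changes and p-values were not used.

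limma 3.58.1 (R 4.3.3) with a variance trend was fitted to the deposited log2 values of each table, without covariates. The difference of the responses was a contrast over all 14 libraries. The design had allowed for a linear scale, and since the values were already log2, no further log was taken. The fits were tested on simulated data. Gene positions are from GENCODE M21 (GRCm38).

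The members, the substrate classes and the other lists were chosen with earlier results of these data known. For each comparison the text names the 6 highest and the 6 lowest changes that passed without overlap of the groups, the 2 with the smallest p in each class, those that passed in both settings and the 6 with the smallest adjusted p for a difference. This named 43 members, beside a result that is not reported here. Others are given after their values were seen. No pair within a group agreed to within sampling noise (chi-square over its degrees of freedom 1.37 to 5.92), and each library counts as a sample. Alternatives covered scaling, the trend, a filter at the 25th percentile of level, voom, 2 reads in place of 0.5, the replicate number as a block and leaving out each library. Removing the gene constants before the trend, leaving out replicate 4 of both culture groups and leaving out libraries for the difference were added after seeing the data.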

Additional observations from a re-analysis of the deposited data

Results flagged for a closer look

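Among the 86 culture groups of 4 libraries of the 43 named members, 9 held a library whose gap to its nearest neighbour was large beside the range of the group, where chance gives about 1 in 20. The gap took these shares of the range on the log2 scale. In control cultures, library 4 stood apart for Slc16a10 (0.895, high), Slc16a3 (0.871, low), Slc19a1 (0.914, low) and Slc30a1 (0.855, high), library 2 for Slc25a10 (0.86, high) and library 1 for Slc25a51 (0.924, low). In IL4 cultures, library 1 stood apart for Slc11a1 (0.924, low) and Slc30a4 (0.842, low) and library 3 for Slc16a6 (0.963, high). Control library 4 thus accounted for 4 of the 9. Without library 4 of both culture groups, 71 members passed in culture, 60 of them among the 68 that passed with all libraries.

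The response to IL4 differed between marrow and culture for 23 named members (marrow change minus culture change, log2). It was higher in marrow for Slc7a8 (4.12), Slc9a9 (4.05), Slc26a11 (3.50), Slc19a1 (2.93), Slc2a9 (2.80), Slc38a6 (2.60), Slc43a3 (2.15), Slc35c2 (1.98), Slc38a1 (1.46), Slc3a2 (1.15), Slc16a6 (1.04) and Slc45a4 (1.01). It was lower in marrow for Slc17a7 (-5.67), Slc39a10 (-2.70), Slc46a3 (-2.64), Slc11a2 (-2.57), Slc25a13 (-2.15), Slc30a1 (-2.11), Slc16a3 (-1.95), Slc16a1 (-1.82), Slc29a3 (-1.81), Slc25a51 (-1.31) and Slc30a4 (-1.15). Some of these calls were lost under alternatives. When each of the 14 libraries was left out in turn, that of Slc17a7 held in 2 fits, Slc30a4 in 5, Slc45a4 in 6 and Slc16a1 in 11. After centring, Slc16a6 (adjusted p 0.0533) and Slc45a4 (adjusted p 0.115) did not pass. The culture and marrow samples differ in cell source, exposure and sort besides IL4, and these cannot be told apart.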

How the results depend on the processing

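Scaling moved the counts most. In culture, members called higher numbered 34 after median centring and 34 after quantile normalization, and members called lower 25 and 29. Members with a higher response in marrow numbered 15 after centring. Members higher in both settings, 0 as deposited, numbered 6 after centring, 4 after quantile normalization, 2 with 2 reads added before the log, and 1 each with the gene constants removed, with genes above the 25th percentile, with voom and with the replicate number as a block. Members lower in both numbered 6 after centring and 7 without a variance trend, and members higher in culture and lower in marrow 5 after centring and 7 after quantile normalization. Leaving out a library gave 13 to 21 members lower in marrow, the fewest without control library 3. The causes were not tested. The other counts stayed within 1.5 times.

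Same-numbered libraries deviated together weakly or not at all across genes (correlations -0.045 to 0.022 in culture and 0.0264 to 0.059 in marrow). These correlations do not settle whether the numbers pair the samples. Every marrow library correlated best with its own number, which in culture held for 1 of 4 numbers. With the number as a block, 62 members passed in culture, 36 in marrow and 40 for the difference. Of named members, Slc9a3r1 in culture (adjusted p 0.0523) and Slc12a9 (0.0596) and Slc25a10 (0.0593) in marrow and the difference of Slc45a4 (0.0767) did not pass with it, while Slc17a7 in culture (0.0231), Slc30a4 (0.0289) and Slc9a9 (0.045) in marrow and the difference of Slc7a5 (0.0179) passed. The difference of Slc17a7, at adjusted p 0.0453 without the block, was at 0.000272 with it.

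Without a variance trend, Slc9a3r1 in culture (adjusted p 0.0566) and Slc11a1 (0.0803), Slc12a9 (0.0569), Slc19a1 (0.0533), Slc43a2 (0.0777), Slc43a3 (0.0562) and Slc5a3 (0.0544) in marrow did not pass. After quantile normalization the same held for Slc19a1 (0.189) and Slc35a1 (0.462) in culture and Slc12a9 (0.0618) and Slc35e3 (0.0514) in marrow. In the comparisons each was named for, no named member changed sign under any alternative that was run. In other comparisons, uncalled values changed sign after centring for Slc38a6 (-0.33 as deposited, 0.03 centred) and Slc35e3 (-0.35 and 0.02) in culture, Slc35a1 in marrow (-0.04 and 0.07) and the difference of Slc6a8 (0.13 and -0.13). With under 10 mean reads (21 members in culture, 33 in marrow), depth limits what could be detected.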

Other observations

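Some carriers outside the named set, chosen here after their values were seen, add to the picture of amino acid and fuel carriers. Slc7a6, the second y+LAT light chain, was at 2.44, 4.86, 7.16 and 4.51 RPM in IL4 cultures, against 20.0, 17.8, 22 and 11.3 RPM in control cultures. It fell by 1.81 ± 0.34 (adjusted p 0.00243) beside Slc7a7, and in marrow it changed by -0.19 ± 0.28 (adjusted p 0.689), a difference of 1.62 ± 0.47 (adjusted p 0.0223). Slc16a7 (MCT2), a high-affinity pyruvate and lactate importer, was at 4.89, 8.51, 10.0 and 12.0 RPM in IL4 cultures, against 27.8, 43.7, 39.4 and 29.7 RPM in control cultures, and fell by 1.95 ± 0.29 (adjusted p 0.000699), while Slc16a3 rose there. Slc25a20, which carries acylcarnitines into mitochondria for fatty acid oxidation, was at 101, 98.7 and 77.2 RPM in IL4 marrow, against 23.2, 38.4 and 57.5 RPM in control marrow. It rose by 1.28 ± 0.28 (adjusted p 0.014), and in culture it changed by -0.22 ± 0.16 (adjusted p 0.317), a difference of 1.5 ± 0.35 (adjusted p 0.00655).

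Slc12a4, a potassium-chloride cotransporter, was at 123, 119, 142 and 122 RPM in IL4 cultures, against 76.6, 61.5, 66.1 and 100 RPM in control cultures. It rose by 0.75 ± 0.17 in culture (adjusted p 0.00635), and in marrow it was at 3.49, 7.31 and 19.3 RPM with IL4 and 35.5, 21.5 and 24.5 RPM in controls (-1.61 ± 0.51, adjusted p 0.0564). The responses differed by -2.36 ± 0.53 (adjusted p 0.00546). At least 279 of its exon bases overlap an antisense gene.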
